A study of Mus musculus with 6 samples.

Results

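Mature oligodendrocytes wrap axons in myelin, a stack of lipid-rich membranes whose proteins are made in very large amounts. The data described here are the transcript levels of 9 genes that mark these cells: Mbp, Mobp, Cnp, Mag, Mog, Mal, Cldn11, Hapln2 and Opalin. They were chosen by name, as the rows of the deposited table whose Ensembl mouse gene identifier maps to these symbols. All 9 had a row among the 78298 identifiers, and all 9 passed the filter on low values, a mean of at least 10 normalised counts over the 6 libraries, which left 17391 genes.

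The study compared 3 Top2b-low mice with 3 wild-type mice, all males. Top2b encodes topoisomerase IIβ, an enzyme that relieves strain in DNA by passing one double strand through another. Both copies of Top2b in the Top2b-low mice carried an auxin-inducible degron tag, placed by CRISPR/Cas9 where the coding sequence starts, and the labels name no compound given to either group. The labels give the tissue of every library as the left brain. Polyadenylated RNA was sequenced, 1 library per mouse. The labels give an age of 10 weeks and the series text one of 3.5 months. The library name of Top2b-low replicate 3 ends in dNdN, a code the labels do not explain, where those of replicates 1 and 2 end in Homo. Replicate 3 of each genotype has a library name that begins with N22, and the names of the other 4 begin with X or NT. No source says what N22 stands for, so the 2 libraries are called N22 libraries here.

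The libraries held 16963067 to 35246703 reads, the N22 libraries being the largest with 35246703 in Top2b-low and 28629911 in wild type. Top2b (ENSMUSG00000017485, chromosome 14) had 2152, 2314 and 1965 normalised counts in Top2b-low replicates 1 to 3, against 3160, 3014 and 2485 in wild type replicates 1 to 3. Every Top2b-low value was below every wild-type value. The log2 fold change was −0.42 (SE 0.11), with limma's unadjusted p = 0.00629 and Benjamini-Hochberg adjusted p = 0.99997. With an N22 term in the model the fold change was the same and limma's adjusted p was 0.224, while DESeq2 with that term called Top2b lower (−0.42, adjusted p = 4.88e-05), the adjusted p running from 4.88e-05 to 1 over all alternatives. Transcripts of cerebellar granule cells were nearly absent from the 2 N22 libraries, though the labels give every library the same tissue. Whether the same parts of the brain were taken was not tested. The granule cell gene Gabra6 stood at a mean of 0.65 normalised counts in them and of 2119 in the other 4.

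Each of the 9 genes has a known place in the myelin sheath or on the oligodendrocyte. Myelin basic protein (Mbp) and the oligodendrocyte basic protein Mobp hold the cytoplasmic faces of the membrane together in compact myelin. Cnp encodes CNPase, an enzyme kept in the channels where myelin stays uncompacted. Mag is an adhesion protein on the inner membrane that faces the axon, and Mog lies on the outermost layer. Mal is a lipid-raft protein that takes part in sorting myelin proteins to the membrane, and claudin 11 (Cldn11) forms the tight junctions between myelin layers. Hapln2 binds hyaluronan in the matrix at nodes of Ranvier, the gaps between myelin segments. Opalin is a glycosylated transmembrane protein found in the oligodendrocytes of mammals. The transcription factors SOX10 and MYRF drive the myelin programme as these cells mature.

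Promoter sequences are shown for Mobp and Cnp, which passed the test between library sets described below, for Mag, whose values split the same way, and for Opalin, whose genotype difference had the opposite sign to the other 8. They are the bases before the most upstream RefSeq start of each gene on GRCm38.p6, 250 long, or 220 for Cnp, where 30 more lie inside the RefSeq gene. Capitals mark the SOX core, searched as ACAAAG and, in its other spelling, as ACAATG, and the MYRF motif, searched as CTGGCAC and, in its other spelling, as CTGGTAC. Both strands were searched, so a match on the reverse strand appears as the reverse complement. No match overlapped another. The windows lie on the build of RefSeq's table, which is not the mm39 build of the counts.
Mobp, chr9:120149492-120149741, plus strand: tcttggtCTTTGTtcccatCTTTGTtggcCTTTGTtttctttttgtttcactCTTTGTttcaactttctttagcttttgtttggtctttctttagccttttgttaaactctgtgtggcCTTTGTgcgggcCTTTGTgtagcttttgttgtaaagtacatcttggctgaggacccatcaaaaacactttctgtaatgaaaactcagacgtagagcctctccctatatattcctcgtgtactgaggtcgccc
Cnp, chr11:100574689-100574908, plus strand: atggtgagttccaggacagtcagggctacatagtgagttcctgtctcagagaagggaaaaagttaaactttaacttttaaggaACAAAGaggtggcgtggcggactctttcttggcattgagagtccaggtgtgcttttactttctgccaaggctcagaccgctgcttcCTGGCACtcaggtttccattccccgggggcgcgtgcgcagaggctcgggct
Mag, chr7:30914923-30915172, minus strand: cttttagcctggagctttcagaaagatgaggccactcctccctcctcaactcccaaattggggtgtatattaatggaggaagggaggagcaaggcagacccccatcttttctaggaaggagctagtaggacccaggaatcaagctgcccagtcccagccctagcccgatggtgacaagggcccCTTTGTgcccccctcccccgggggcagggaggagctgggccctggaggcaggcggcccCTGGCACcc
Opalin, chr19:41077114-41077363, minus strand: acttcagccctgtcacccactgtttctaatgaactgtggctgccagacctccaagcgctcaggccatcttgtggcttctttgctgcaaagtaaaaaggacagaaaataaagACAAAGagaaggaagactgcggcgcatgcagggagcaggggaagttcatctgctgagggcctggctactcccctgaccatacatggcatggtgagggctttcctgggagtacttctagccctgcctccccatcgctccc

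Promoter windows were searched for 8 of the 9 genes, and Mbp was left out. A spelling of the MYRF motif lay in the 250 bases of 4 of the 8, Cnp, Mag, Hapln2 and Mog, and in 5.93% of all 32851 promoter windows of that length. A SOX core lay in 5 of the 8, Cnp, Mag, Mobp, Hapln2 and Opalin, and in 25.2% of all windows. The Mobp window held 6 copies of CTTTGT. Opalin held 1 SOX core and neither MYRF spelling, and Mal and Cldn11 held none of the 4. A match is a run of letters and not a shown binding site, and the lack of one speaks only of these letters in this window.

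Between genotypes, none of the 9 genes passed the test, and the differences were small. In Top2b-low mice 8 of the 9 had a fold change below 0, between −0.03 and −0.23 on the log2 scale, and Opalin stood at 0.24. Over all tested genes 50.6% had a fold change below 0, and the 9 genes had a median of −0.08, against −0.0021 for all tested genes. With 1 library left out the median of the 9 ran from −0.15, without wild type replicate 3, to −0.04, without Top2b-low replicate 3. It was −0.14 without Top2b-low replicate 1, and −0.05 without Top2b-low replicate 2 or wild type replicate 1. Limma on log2(normalised count + 1), the pseudocount being 1, called 0 of the 9, and 0 of 17391 genes in all, so that percent called was 0.00%. Of all genes 262 (1.51%) had an unadjusted p under 0.05 and 0 of the 9 did. On the reads recovered from the table, edgeR's quasi-likelihood test called 0 genes (250 with an unadjusted p under 0.05), and so did DESeq2 (168). These fits have no N22 term, so a difference between N22 and other libraries adds to a gene's error. With that term 1011 genes had limma's unadjusted p under 0.05, and 0 genes were called. Limma's adjusted p was then 0.794 for Opalin and 0.8545 for Hapln2. The genotype intervals and unadjusted p given below come from limma without the term. In bulk tissue fewer cells of a type and less RNA per cell cannot be told apart.

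Mbp had 47784, 51323 and 46341 normalised counts in Top2b-low replicates 1 to 3, against 53708, 53810 and 50817 in wild type replicates 1 to 3. The groups overlapped only in that Top2b-low replicate 2 lay above wild type replicate 3. The means were 48483 ± 2563 and 52778 ± 1700 (SD, n = 3 each), and the log2 fold change of −0.12 (SE 0.07) had a 95% interval from −18.5% to 3.43% (limma, unadjusted p = 0.135). With quantile normalization the fold change of Mbp was −0.23. Mobp had 22590, 18460 and 17414 normalised counts in Top2b-low mice, against 20618, 22467 and 17782 in wild type. Its highest value was Top2b-low replicate 1 and its lowest Top2b-low replicate 3, so the genotypes overlapped fully. Cnp had 7464, 6674 and 5604 normalised counts in Top2b-low mice, against 7408, 6902 and 6048 in wild type. In each genotype the N22 library was the lowest for Mbp, Mobp and Cnp alike, while the genotype intervals ran from −21.8% to 17.6% for Mobp and from −20.99% to 18.2% for Cnp.

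**Figure D1:**
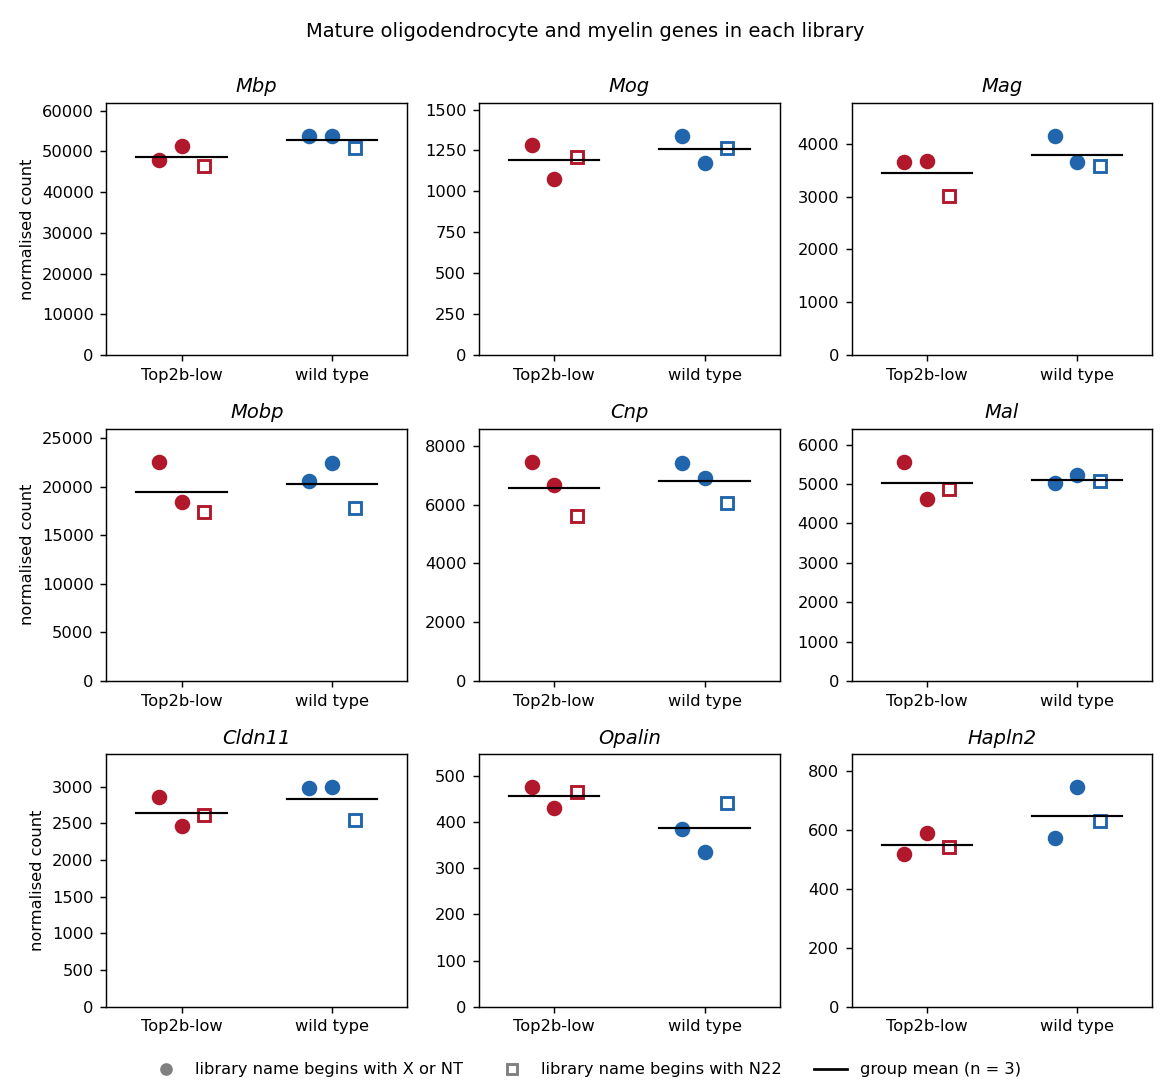
Normalised counts of the 9 genes (vertical axes from 0) in the 3 Top2b-low libraries and the 3 wild-type libraries, with open squares for the N22 libraries and bars for the group means. The genotypes overlap for each gene. For Cnp, Mobp and Mag both open squares lie below all other values, and for Mbp each is the lowest of its own genotype only.

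The 4 membrane proteins differed little between genotypes. Mag had 3663, 3678 and 3005 normalised counts in Top2b-low mice, against 4150, 3651 and 3583 in wild type. The N22 library of the Top2b-low group held the lowest value of the 6 and wild type replicate 1 the highest. Mog had 1285, 1078 and 1210 normalised counts in Top2b-low mice, against 1340, 1171 and 1262 in wild type. Mal had 5573, 4626 and 4865 normalised counts in Top2b-low mice, against 5025, 5221 and 5077 in wild type, so that the wild-type values fell within the Top2b-low range. Cldn11 had 2863, 2458 and 2610 normalised counts in Top2b-low mice, against 2981, 2989 and 2538 in wild type. The log2 fold changes were −0.14 for Mag, −0.08 for Mog, −0.03 for Mal and −0.10 for Cldn11, with SE of 0.09 to 0.11. The narrowest of these intervals, that of Mal, ran from −14.7% to 12.6%, and the widest, that of Mag, from −23.7% to 7.72%.

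Hapln2 and Opalin had the largest differences of the 9, in opposite directions. Hapln2 had 519, 589 and 541 normalised counts in Top2b-low mice, against 571, 744 and 630 in wild type. Wild type replicate 2 was the highest, and Top2b-low replicate 2 lay above wild type replicate 1. The means were 550 ± 35.5 and 648 ± 88.2 (SD, n = 3 each), with a log2 fold change of −0.23 (SE 0.12; limma, unadjusted p = 0.0926) and an interval from −29.8% to 3.45%. Opalin had 475, 430 and 465 normalised counts in Top2b-low mice, against 385.03, 336 and 441 in wild type. The 2 highest values were Top2b-low libraries and the 2 lowest wild-type libraries, with Top2b-low replicate 2 just below wild type replicate 3. The means were 457 ± 23.8 and 387 ± 52.6 (SD, n = 3 each), with a log2 fold change of 0.24 (SE 0.12; limma, unadjusted p = 0.0836) and an interval from −2.85% to 44.5%. Both had limma's adjusted p = 0.99997. The groups overlapped for each of the 9 genes, while they did not for 5.74% of all tested genes. Within same-numbered pairs, Mbp, Mog and Hapln2 were lower in the Top2b-low library in 3 of 3, a direction shared by 14.0% of all tested genes. Opalin was higher in 3 of 3, as were 14.0% of all tested genes, and the other 5 were lower in 2 of 3. The numbers do not set replicates 1 and 2 apart, so their matching is arbitrary. Matched the other way, Top2b-low replicate 1 had more Mog than wild type replicate 2 (1285 against 1171). Top2b-low replicate 2 then had more Hapln2 than wild type replicate 1 (589 against 571), while Mbp stayed lower and Opalin higher in each pair. With the replicate number as a block, limma's adjusted p was 0.739 for Mbp, 0.859 for Mog, 0.579 for Hapln2 and 0.63 for Opalin.

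**Figure D2:**
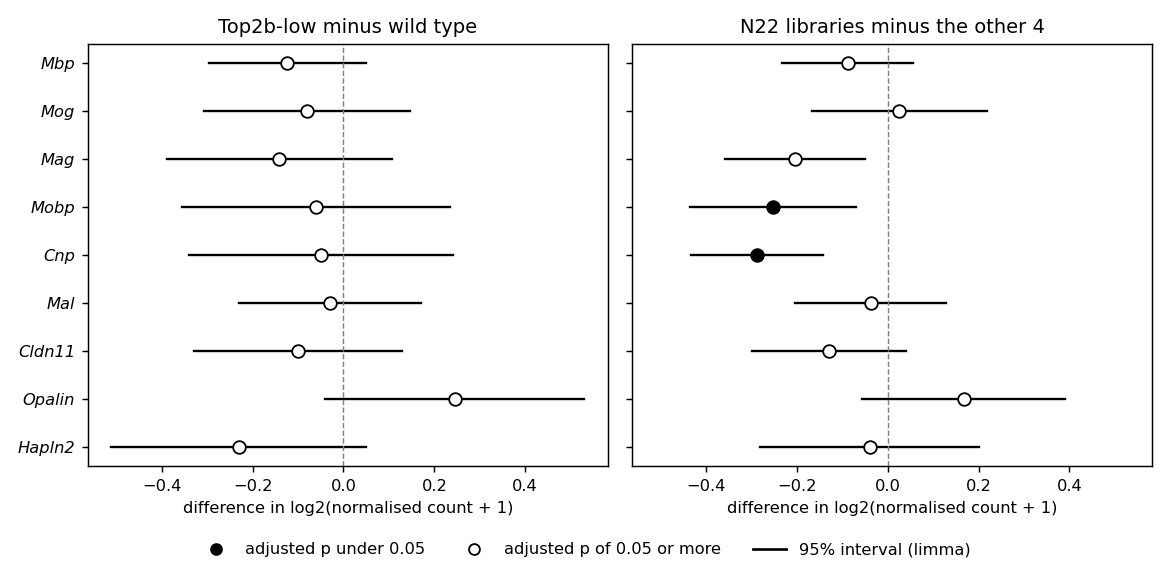
Differences of the 9 genes in log2(normalised count + 1), Top2b-low minus wild type on the left and N22 libraries minus the other 4 on the right, with 95% intervals from limma. Each genotype interval crosses 0, and Cnp and Mobp, the filled points on the right, passed the test at −0.29 and −0.25.

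Cnp and Mobp fell in the N22 libraries. With genotype in the model, limma called 2 of the 9 genes lower in the N22 libraries and 0 higher, where it called 28.0% of all tested genes, 16.7% lower and 11.3% higher (2901 and 1963 genes). With quantile normalization the same test called 2377 genes lower and 2438 higher. Cnp averaged 5826 ± 314 normalised counts in the 2 N22 libraries and 7112 ± 386 in the other 4 (SD), a log2 difference of −0.29 (SE 0.07; limma, adjusted p = 0.00973). Mobp averaged 17598 ± 260 in the N22 libraries and 21034 ± 1939 in the other 4, a log2 difference of −0.25 (SE 0.08; limma, adjusted p = 0.0441). For Cnp, Mobp and Mag both N22 values lay below all 4 others, 3 of 9 genes, where 26.5% of all tested genes did so. Both counts, 2 of 9 called and 3 of 9 without overlap, lay near the shares of all tested genes. Mag averaged 3294 ± 409 and 3786 ± 243, a log2 difference of −0.20 (SE 0.07), and lay at the threshold (limma, adjusted p = 0.0509). It passed with a pseudocount of 5 and with a filter at a mean of 50 (0.0493 and 0.0455).

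The other 6 genes did not pass between the N22 libraries and the rest. The log2 differences were −0.09 for Mbp, −0.13 for Cldn11, 0.03 for Mog and 0.17 for Opalin, and −0.04 for both Mal and Hapln2, whose sign turned with quantile normalization. Of the 9 genes 7 had a difference below 0, as did 50.5% of all tested genes, and the median over the 9 was −0.09, against −0.0046 for all tested genes. Opalin averaged 453 ± 17.0 normalised counts in the N22 libraries and 406 ± 59.7 in the other 4 (limma, adjusted p = 0.24). With 1 library left out Opalin ran from 0.04, without wild type replicate 3, to 0.29, without Top2b-low replicate 3, and was 0.11 without wild type replicate 2. Cldn11 ran from −0.23, without Top2b-low replicate 3, to −0.02, without wild type replicate 3. Leaving out either N22 library leaves the other as the only N22 sample, which is then assumed to vary like the remaining libraries, so a call lost there is no sign of a smaller difference. In these fits 0 of the 9 were called. Cnp was at −0.24 without Top2b-low replicate 3 and at −0.33 without wild type replicate 3 (limma, adjusted p of 0.139 and 0.0532), and Mobp at −0.28 and −0.23 (0.182 and 0.258). Without Top2b-low replicate 1, wild type replicate 1 or wild type replicate 2 the call of Mobp ended (limma, adjusted p of 0.0759, 0.0652 and 0.11), as it did with TMM scaling and with no filter on low values (0.0603 and 0.124). The difference of Mobp was between −0.28 and −0.19 in these 5 fits. Without wild type replicate 2 Mag was called (−0.26, adjusted p = 0.0192), and without Top2b-low replicate 2 Cldn11 was (−0.19, adjusted p = 0.0409). Over all alternatives the adjusted p ran from 0.00143 to 0.139 for Cnp, from 0.00956 to 0.258 for Mobp, from 0.0192 to 0.461 for Mag and from 0.0409 to 0.91 for Cldn11.

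Markers of brain regions split with the N22 libraries as well, and their part in the difference of Cnp and Mobp was not tested. Of all tested genes 16.7% were called lower in the N22 libraries and 11.3% higher. All 12 cerebellar genes fell in the N22 libraries, with summed levels of 5769 and 6135 normalised counts in them and 32488 to 41043 in the other 4. Fat2 and Cbln3 of granule cells averaged 4.98 and 13.6 normalised counts in the N22 libraries, against 3124 and 5753 in the other 4, and Car8 of Purkinje cells 220 against 6422. Of 16 hindbrain and spinal cord genes 7 were tested and 6 of them fell, among them the glycine transporter Slc6a5, at 28.4 normalised counts in the N22 libraries and 721 in the other 4. Hoxb5, Hoxa5 and Hoxb3 had 0 reads in both N22 libraries, which allows up to 3 reads in each. There 1 read is 0.59 normalised counts in Top2b-low replicate 3 and 0.71 in wild type replicate 3. The filter was on the mean over all 6 libraries, so these Hox genes passed it only through the other 4. The count of 6 of 7 is therefore a description of genes selected in part by their level in those 4, and is no test. Of 12 forebrain excitatory neuron genes 8 rose and 0 fell, with Nrgn at 0.72, Emx1 at 0.81, Neurod6 at 0.49 and Camk2a at 0.36 on the log2 scale. Of 10 striatal genes 7 rose and 0 fell, including Adora2a (0.53), Ppp1r1b (0.43), Rgs9 (0.39) and Pde10a (0.30). The forebrain list had 2 higher and 1 lower and the striatal list 3 higher without Top2b-low replicate 3, and without wild type replicate 3 they had 5 and 2 higher. None of these genes passed between genotypes. In Top2b-low mice all 12 forebrain genes had a fold change above 0 (median 0.21), as did 9 of 10 striatal genes (median 0.20), and the 7 hindbrain genes were below 0 (median −0.88). The part of these markers in the genotype values of the 9 genes was not tested.

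The genotype difference was set against the same difference in the N22 pair. Opalin was 5.46% higher in the Top2b-low library of the N22 pair and 25.5% higher in the Top2b-low libraries of the other 4. Both Top2b-low values of those 4 lay above both wild-type values, and a gene with that split and the same direction in the N22 pair was found for 8.68% of all tested genes. For Cldn11 the difference, Top2b-low minus wild type, was 2.81% in the N22 pair and −10.9% in the other 4. It was −16.1% and −5.89% for Mag, and −8.81% and −7.82% for Mbp. The N22 pair has 1 library per genotype, so the test of this difference takes its spread from the other 4 libraries alone and assumes that the pair varies alike. This test, an interaction term in limma, passed for 0 of the 9 genes (adjusted p = 0.997 for each, smallest unadjusted p 0.18) and for 4 of all tested genes, 0.0230%. The interval of this difference for Opalin ran from −0.70 to 0.19 on the log2 scale.

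Opalin followed another pattern over the libraries than the mean of the other 8 genes. Its log2 deviation from its own mean over the 6 libraries was 0.18, 0.04 and 0.15 in Top2b-low replicates 1 to 3, against −0.12, −0.32 and 0.07 in wild type replicates 1 to 3. The mean deviation of the other 8 was 0.05, −0.06 and −0.14 in Top2b-low mice, against 0.09, 0.10 and −0.03 in wild type. Opalin thus lay above the mean of the other 8 in the 3 Top2b-low libraries and in wild type replicate 3, and below it in wild type replicates 1 and 2. The gap was 0.13, 0.10 and 0.29 in Top2b-low mice, against −0.21, −0.42 and 0.11 in wild type. As a ratio within each library, which no scaling between libraries alters, Opalin came to 9.94, 8.37 and 10.03 per 1000 Mbp counts in Top2b-low mice, against 7.17, 6.24 and 8.68 in wild type. Per 1000 Mog counts it came to 370, 399 and 384 in Top2b-low mice, against 287, 287 and 349 in wild type, without overlap. These ratios were formed with the values in view and carry no test, and no share without overlap was taken over other pairs of genes.

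**Figure D3:**
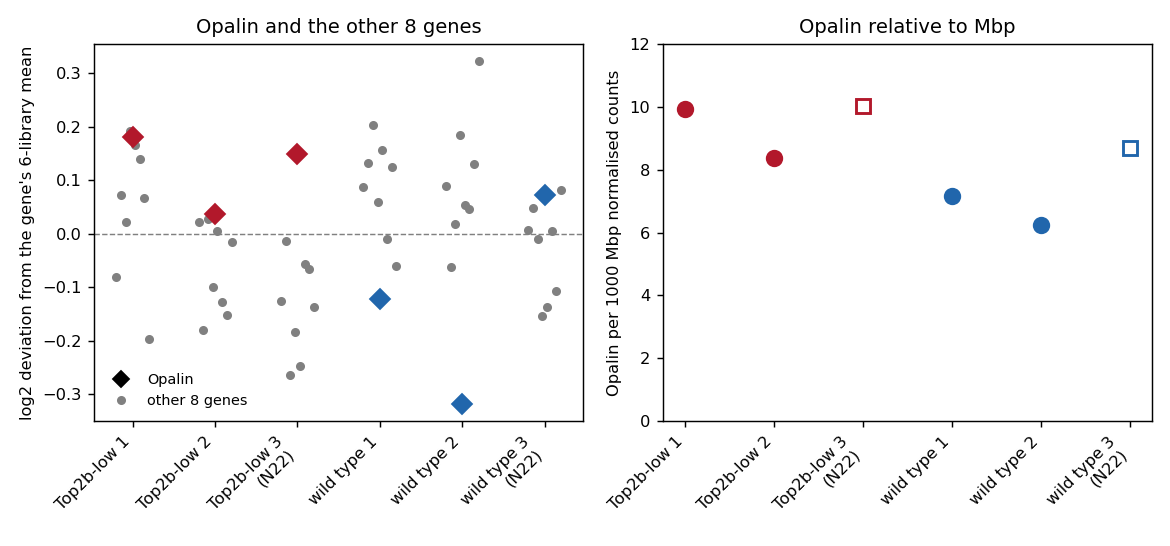
Left, log2 deviations from each gene's mean over the 6 libraries, with Opalin as diamonds and the other 8 genes as grey points. Right, Opalin per 1000 Mbp normalised counts in the same libraries, from 6.24 in wild type replicate 2 to 10.03 in Top2b-low replicate 3.

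The patterns of the 9 genes over the libraries were compared by the root mean square difference of their log2 deviations. Mag and Cnp were the closest pair, at 0.083, followed by Mobp with Cldn11 and Mobp with Cnp, at 0.083 and 0.084. Opalin and Hapln2 were the farthest pair, at 0.33. Opalin had the largest mean difference from the other members, 0.25, followed by Hapln2 with 0.21, and the other 7 genes lay between 0.13 and 0.15. The spread over the 6 libraries was smallest for Mbp and Mal, with an SD of 0.088 and 0.091 on the log2 scale, and largest for Opalin and Hapln2, with 0.19 for each. Opalin and Hapln2 also had the fewest reads of the 9 genes, 268 to 786 and 422 to 915 per library. The part of counting error in their spread was not tested. The points share their libraries, and the measure is a description.

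Together the 9 genes made up 0.435%, 0.423% and 0.394% of the reads in Top2b-low mice, against 0.456%, 0.458% and 0.433% in wild type. The share was lowest in Top2b-low replicate 3, and Top2b-low replicate 1 lay just above wild type replicate 3. This came to 0.417% ± 0.0212 in Top2b-low mice and 0.449% ± 0.0139 in wild type (mean ± SD, n = 3 each). Mbp alone held 78330 of the 138698 reads of the 9 genes in Top2b-low replicate 3, so this share mostly follows Mbp and Mobp.

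Among the other genes with a mean of at least 100 normalised counts and an official symbol, 11554 in all, those closest to Opalin were Rcor2, Klf11, Sox12, Bcs1l and Prkd1. Their root mean square differences from it ran from 0.043 to 0.050 on the log2 scale. Sox12 had 441, 416 and 459 normalised counts in Top2b-low mice, against 394, 336 and 420 in wild type. Closest to the mean of the other 8 members were Prkar1a, Tmem87a, Sv2a, Fxr2 and Dcaf12l1, at 0.0094 to 0.025. Prkar1a, a regulatory subunit of protein kinase A, had 16943, 15742 and 15203 normalised counts in Top2b-low mice, against 17482, 17579 and 16200 in wild type. None of these 10 genes is among the oligodendrocyte lists used here.

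Further myelin and junction genes of oligodendrocytes had 0 of 30 called between genotypes. Of the 30, 25 had a fold change below 0, with a median of −0.07. Ndrg1 and the small heat shock protein Cryab had the smallest unadjusted p of the list, 0.0362 and 0.0602, at −0.28 and −0.23. In the N22 libraries 13 of the 30 were called lower and 0 higher, where 16.7% of all tested genes were called lower and 11.3% higher. By sign alone 20 of the 30 were below 0 and 10 above 0. The largest of the latter was Ppp1r14a at 0.43, which was not called (limma, adjusted p = 0.0702). Cntn2, an adhesion protein of the juxtaparanode that neurons make too, was at −0.63 on the log2 scale, Tmem88b at −0.60, the lysophosphatidic acid receptor Lpar1 at −0.48 and the connexin Gjc3 at −0.30. Without Top2b-low replicate 3 there were 6 calls, without wild type replicate 3 there were 5, and without wild type replicate 1 there were 8.

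Genes of myelin lipid synthesis had 0 of 20 called between genotypes, with a median of −0.04. Elovl1 and Degs1 had the smallest unadjusted p of the list, 0.255 and 0.35. In the N22 libraries 7 of 20 fell and 1, Pex5l, rose, beside 16.7% of all tested genes called lower and 11.3% higher. Ugt8a, which makes the myelin lipid galactosylceramide, averaged 1114 ± 64.7 normalised counts in the N22 libraries and 1823 ± 212 in the other 4, a log2 difference of −0.70 (SE 0.07; limma, adjusted p = 6.64e-05). The fatty acid desaturase Scd2 was at −0.45 and the elongase Elovl7 at −0.50. The list had 2 calls without Top2b-low replicate 3 and 5 without wild type replicate 3.

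Transcription factors of the lineage had 0 of 16 called between genotypes, with a median of −0.03. Zeb2 and Myrf had the smallest unadjusted p of the list, 0.072 and 0.244, at 0.16 and −0.17. In the N22 libraries 8 of 16 fell and 1, Olig2, rose, beside 16.7% of all tested genes called lower and 11.3% higher. Myrf, the regulator of myelin genes, averaged 1087 ± 157 normalised counts in the N22 libraries and 1341 ± 81.7 in the other 4, a log2 difference of −0.31 (limma, adjusted p = 0.0121). St18 and Myt1, zinc finger proteins that neurons express as well, were at −1.64 and −1.08, Zfp536 at −0.54 and Sox8 at −0.45. Without Top2b-low replicate 3 there were 4 calls, and without wild type replicate 3 there were 6.

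Late or regional markers of mature oligodendrocytes had 0 of 15 called between genotypes, with a median of −0.08. Ptgds, the prostaglandin D synthase that meningeal cells also make, and the annexin Anxa5 had the smallest unadjusted p of the list, 0.00868 and 0.0446, at −0.25 and −0.19. In the N22 libraries 6 of 15 fell and 1, Gstp1, rose, beside 16.7% of all tested genes called lower and 11.3% higher. The transferrin gene Trf averaged 5635 ± 493 normalised counts in the N22 libraries and 8725 ± 350 in the other 4, a log2 difference of −0.63 (SE 0.06; limma, adjusted p = 6.37e-05). Pde1c was at −1.36, the protease Klk6 at −0.78 and S100b, which astrocytes also make, at −0.52. Without Top2b-low replicate 3 there were 4 calls, and without wild type replicate 3 there were 3.

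**Figure D4:**
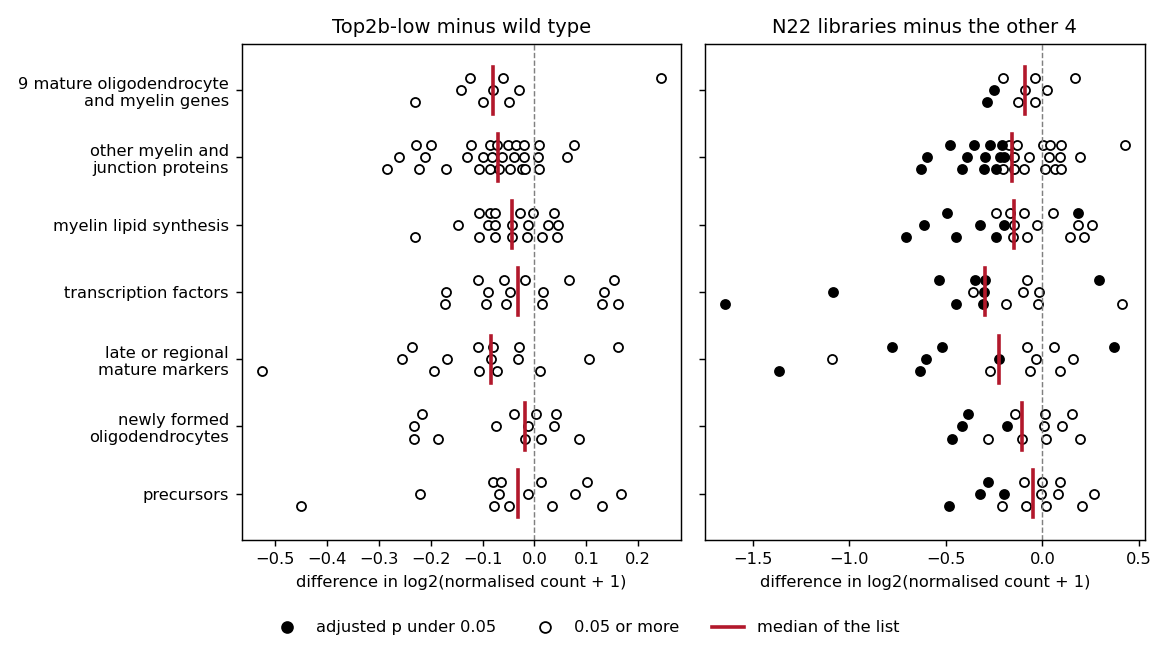
Differences in log2(normalised count + 1) for each tested gene of 7 oligodendrocyte lists, Top2b-low minus wild type on the left and N22 libraries minus the other 4 on the right (the horizontal scales differ), with list medians as bars. No gene is filled on the left. On the right 2 of the 9 mature oligodendrocyte and myelin genes and 13 of the 30 other myelin and junction genes are filled, all below 0.

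Earlier stages of the lineage had 0 called between genotypes, of 13 tested genes of newly formed oligodendrocytes and of 14 precursor genes. The medians were −0.02 and −0.03. Gpr17 and Lims2 of newly formed cells were at −0.19 and −0.23 (limma, unadjusted p of 0.0717 and 0.108), and C1ql1 and Lhfpl3 of precursors at −0.45 and −0.22 (0.0498 and 0.134). In the N22 libraries 4 of 13 and 4 of 14 fell and 0 rose, beside 16.7% of all tested genes called lower and 11.3% higher. Among them were Tmem163 (−0.41), Cemip2 (−0.47), Mpzl1 (−0.38) and Serinc5 (−0.18) of newly formed cells. Ptprz1 (−0.48), Vcan (−0.32), Lhfpl3 (−0.28) and Xylt1 (−0.20) were those of precursors. Without Top2b-low replicate 3 the calls were 0 and 1, and without wild type replicate 3 they were 2 and 1. Without wild type replicate 1 the precursor list had 2.

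Markers of other cells were examined beside the 9 genes. Of all tested genes 16.7% were called lower in the N22 libraries and 11.3% higher. Of 12 astrocyte genes 6 fell in the N22 libraries and 0 rose, among them Aqp4 (−0.95), Sox9 (−0.68), Slc1a3 (−0.48) and Aldoc (−0.37), and 0 were called between genotypes, Agt and Gjb6 having the smallest unadjusted p (0.0243 and 0.0289). Of 12 microglia genes Siglech and Aif1 rose in the N22 libraries (0.42 and 0.65), 0 fell, and 0 were called between genotypes. Neither microglia call held without Top2b-low replicate 3 or without wild type replicate 3. The Schwann cell list, for the myelin of cranial nerves, had 9 of 10 genes tested, with 3 higher and 2 lower in the N22 libraries. Those were Fxyd3 (1.89), Mlip (0.59) and Drp2 (0.22), and Egr2 (−1.57) and Pmp22 (−0.35). The Schwann cell list had 3 calls without Top2b-low replicate 3 and 2 without wild type replicate 3. Ncmap, a Schwann cell gene, had 12.3, 8.50 and 10.1 normalised counts in Top2b-low mice, against 20.6, 25.1 and 18.5 in wild type. The groups thus did not overlap, as was so for 5.74% of all tested genes. Its log2 fold change of −0.99 had limma's unadjusted p = 0.0137 and did not pass the adjusted test (adjusted p = 0.99997). Pmp2, another gene of the list, had 0 to 1.77 normalised counts.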

How the data were processed

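Per the labels, polyadenylated RNA from the left brain of 6 male mice was sequenced, and RSEM and mm39 are named in the submitters' processing notes. The deposited table holds normalised counts (a signal, gene counts divided by a factor per library by the authors). Their steps gave back whole reads for 100% of values within 1e-06 of a whole number. Libraries held 16963067 to 35246703 reads, and 3 reads correspond to 1.77 to 3.76 normalised counts, which covers counting error only. Identifiers were matched to GENCODE M21 symbols (51498 of 78298).

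Genes with a mean of at least 10 were tested with limma 3.58.1 (R 4.3.3) on log2(normalised count + 1), two-sided, with Benjamini-Hochberg adjustment over 17391 genes and a threshold of 0.05, for genotype, for N22 with genotype in the model, and for their interaction. The pseudocount understates changes of low genes. EdgeR 4.0.16 and DESeq2 1.42.0 on the recovered counts were alternatives, beside other pseudocounts (0.5 and 5), filters (none, 50), TMM and quantile scaling, and leaving out each library. The code was tested on simulated data. Whether counting used strand is not given in the sources used here, so antisense overlap cannot be told apart.

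Same-numbered libraries deviated together (correlations of 0.33, 0.35 and 0.68, each over 0.1), which meets the rule used here for pairing. Replicates 1 and 2 are not set apart by number, since Top2b-low replicate 2 correlated with wild type replicate 1 at 0.37 and Top2b-low replicate 1 with wild type replicate 2 at 0.24. All 9 genes are described. Of each other list, up to 4 genes with the smallest p for N22 and up to 2 for genotype are named, apart from some that are not reported here. The members and lists were chosen with earlier results of these data known.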

Additional observations from a re-analysis of the deposited data

Results flagged for a closer look

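Among the 4 libraries outside N22, Mag had 4150 normalised counts in wild type replicate 1, far above the other 3, which held 3651 to 3678. The gap made up 0.945 of the range of the 4 values, above Dixon's 95% critical value for 4 values. Chance gives a gap above that critical value in about 1 of 20 groups, and 13 groups were examined. Without wild type replicate 1 the genotype difference of Mag was −0.07 on the log2 scale, against −0.14 with it.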

How the results depend on the processing

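Genotype calls stayed at 0 genes under each alternative except without Top2b-low replicate 1 (range 0 to 1), with DESeq2 and the replicate block (11, where 16521 genes had no adjusted p) and with DESeq2 and an N22 term (14, added after the data were seen). The replicate block, which follows the replicate numbers, called 0 genes with limma and 0 with edgeR, and with both changed no call of the 9 genes. N22 calls numbered 4864, and 1711 to 4576 with 1 library left out. The interaction called 4 genes, but 2 with a pseudocount of 5, 4824 with no filter, 9 with a mean of at least 50, 9 with quantile normalization, 1 with edgeR and 23 with DESeq2; the cause was not tested. Of the 9 genes 2 were called in N22, but 1 with no filter and 1 with TMM, 3 with a pseudocount of 5 and 3 with a mean of at least 50, and 0 to 3 with 1 library left out. Their median N22 difference was −0.09, against −0.0139 with quantile normalization, where Mal (0.0245) and Hapln2 (0.0051) turned. With 1 library left out, the genotype difference ran from −0.1449 to 0.0618 for Cnp, from −0.1717 to 0.0163 for Mobp and from −0.1062 to 0.0280 for Mal, and the N22 difference from −0.0912 to 0.0239 for Mal, from −0.1204 to 0.0435 for Hapln2 and from −0.0305 to 0.0779 for Mog. Opalin's genotype difference was above 0 under each alternative, from 0.15 to 0.34. Of the 30 other myelin and junction genes 13 were called, and 8 with no filter. With 3 mice a genotype, none of the genotype differences of the 9 genes passed in the unpaired fits, or with the replicate block in limma and edgeR. With that block in DESeq2, Mog, Mag, Cldn11, Hapln2 and Opalin had no adjusted p, so that fit does not judge them.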

Other observations

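Casr, the calcium-sensing receptor and the 1 gene of the newly formed oligodendrocyte list under the filter, was picked after its values were seen. It had 4.92, 4.86 and 5.92 normalised counts in Top2b-low mice, against 14.6, 11.3 and 17.1 in wild type, from 4, 4 and 10 reads against 12, 9 and 24. The groups did not overlap, as was so for 5.74% of the genes that passed the filter. No share was taken over the genes under it. Fitted with no filter, its log2 fold change was −1.28 (SE 0.45; limma, unadjusted p = 0.017, adjusted p = 0.99996 over 35817 genes).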
